A study of Homo sapiens with 6 samples.

Results

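The E2F factors are transcription factors that set the timing of genes needed for DNA replication and mitosis, and the pocket proteins bind E2F factors and turn their target genes down. The genes described here are the 8 E2F genes, E2F1 to E2F8, and the pocket protein genes RBL1 and RBL2, found by their symbols among the 23228 symbols of the count tables. All 10 were listed. They were measured by RNA-seq in MDA-MB-231, a human cell line established from a triple negative breast cancer (TNBC). The 3 control samples carried a stably expressed shRNA without a target, and the 3 PELP1-KD samples carried a stable shRNA against PELP1. PELP1 encodes a coregulator of nuclear receptors and E2F1 that also takes part in ribosome assembly. Both lines were kept in RPMI medium with serum and had been selected with puromycin. Each line was made with 1 shRNA construct, so an effect of the PELP1 loss and of the construct itself cannot be told apart. Nothing in the labels says that the replicates were separate selections, so the p-values measure the spread between these samples alone.

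E2F1, E2F2 and E2F3 are known as activators: with a DP partner they bind promoters and raise transcription as cells pass from G1 into S phase. E2F4 and E2F5 act mostly as repressors held by RBL1 (p107) and RBL2 (p130), and E2F6 represses through Polycomb proteins without binding a pocket protein. E2F7 and E2F8 are atypical repressors that bind DNA without a DP partner and act late in S phase. RBL2 with E2F4 and the MuvB proteins forms the DREAM complex, which silences cell cycle genes in resting cells. RBL1 is itself an E2F target, as is E2F1.

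Between 17304864 and 23132102 reads per sample were counted on genes. The 10 genes took between 0.0744% and 0.0822% of them, from 286 reads on E2F2 in control replicate 3 to 3988 reads on E2F1 in PELP1-KD replicate 3. The mean of PELP1 was 57.8 ± 2.14 CPM in control and 29.6 ± 0.876 CPM in PELP1-KD samples (SD, n = 3), and its log2FC, the log2 fold change of PELP1-KD over control, was -0.97 (edgeR adjusted p-value 1.48e-11). Control replicate 1 and PELP1-KD replicate 2 stood apart from the other two samples of their groups: the chi-square per degree of freedom over genes was 3.88 and 4.11 for pairs with control replicate 1 against 1.47 for the remaining pair, and 2.76 and 2.72 for pairs with PELP1-KD replicate 2 against 1.51. CPM is the read count of a gene relative to the TMM-scaled size of its library. Of the markers of the line, VIM had at least 1909 CPM and CD44 at least 827 CPM in each sample, and KRT8 and KRT18 at least 239.6 CPM. Of the markers of hormone receptor-positive or other cells, ESR1, PGR, PTPRC, PECAM1, CD3E and ALB had at most 7 reads in any sample, and EPCAM had between 8.62 and 11.2 CPM.

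E2F sites near the starts of these genes show which members carry the letters their own family binds. RefSeq promoter windows of 300 bases, from 250 before to 50 after each start on GRCh38.p14, were found for 8 of the 10 genes, and E2F5 and E2F8 were without one. They were searched on both strands for TTTCCCGC, TTTCGCGC, TTTGCCGC and TTTGGCGC. Of all 27305 genes with a window, 3.99% held such a word. E2F1, E2F2, E2F3 and RBL1 held one or more, and E2F4, E2F6, E2F7 and RBL2 held none in their windows. The last 100 bases before the start and the first 50 after it are shown for these 4 genes, on the gene's strand, with the words in capitals. The E2F1 window is chr20:33686336-33686485 on the minus strand, E2F2 chr1:23531184-23531333 on the minus strand, E2F3 chr6:20401779-20401928 on the plus strand and RBL1 chr20:37095948-37096097 on the minus strand.
E2F1: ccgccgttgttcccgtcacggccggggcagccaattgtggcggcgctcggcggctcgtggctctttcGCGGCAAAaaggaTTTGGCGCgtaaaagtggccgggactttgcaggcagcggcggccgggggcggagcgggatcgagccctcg
E2F2: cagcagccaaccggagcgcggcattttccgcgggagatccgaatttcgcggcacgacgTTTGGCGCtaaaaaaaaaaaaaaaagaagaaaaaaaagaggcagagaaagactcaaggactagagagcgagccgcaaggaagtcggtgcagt
E2F3: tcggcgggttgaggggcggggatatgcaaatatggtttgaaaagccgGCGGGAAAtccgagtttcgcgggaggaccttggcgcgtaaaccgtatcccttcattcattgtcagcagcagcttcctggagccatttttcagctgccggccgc
RBL1: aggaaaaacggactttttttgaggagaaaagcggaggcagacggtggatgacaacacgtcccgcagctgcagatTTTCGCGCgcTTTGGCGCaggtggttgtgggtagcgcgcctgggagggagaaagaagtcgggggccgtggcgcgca
E2F1 and RBL1 each held 2 words, within the last 33 bases before the start. E2F3 has a second start with a window of its own, which held none. A match is a description of letters and shows no binding in these cells.

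The level of a gene was compared with that of another only per length, as RPKM, the CPM per kilobase of exon in GENCODE release 29. E2F1 was the highest of the 10 in the control samples, at 54.2 RPKM ± 0.932 (SD, n = 3), followed by E2F4 at 40.2 RPKM ± 1.10 and E2F3 at 24.8 RPKM ± 1.16. E2F7 was at 17.1 RPKM ± 0.806, E2F8 at 14.9 RPKM ± 0.444 and RBL1 at 14.2 RPKM ± 0.654, and the samples of E2F8 and RBL1 overlapped. RBL2, at 5.78 RPKM ± 0.240, lay above E2F6, at 5.28 RPKM ± 0.265. E2F5, at 3.20 RPKM ± 0.0595, and E2F2, at 3.16 RPKM ± 0.206, were the lowest, and their samples overlapped. The highest and the lowest member thus differed 17.2-fold among the controls and 24.3-fold in PELP1-KD cells, where the lowest was E2F5 at 2.88 RPKM ± 0.243 (SD, n = 3). The order and the span depend on the length used. By coding length, E2F4 was highest in the control samples, at 116 RPKM against 104 RPKM for E2F1, and RBL2 was lowest, at 12.4 RPKM, a span of 9.39-fold. By longest transcript, E2F4 was at 55.1 RPKM and E2F1 at 54.2 RPKM.

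**Figure D1:**
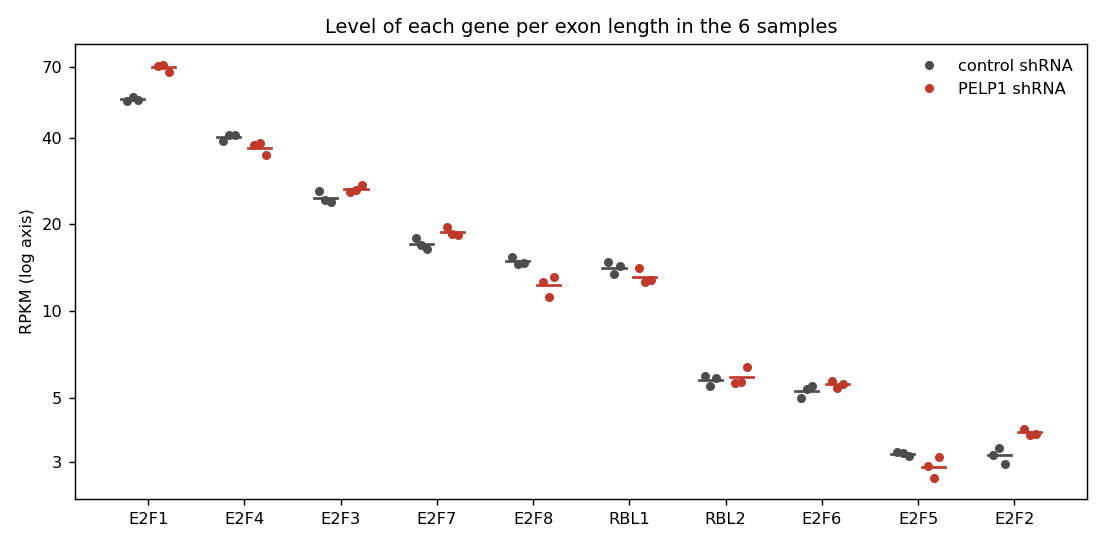
Level of each gene in RPKM on a log axis in the 3 control samples (grey) and the 3 PELP1-KD samples (red), with the group mean as a line. E2F1 is highest in both groups, and its PELP1-KD samples, from 67.7 to 71.6 RPKM, lie above its control samples, from 53.6 to 55.3 RPKM.

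All 10 genes had enough reads to be tested, in a fit over 12796 genes. At an adjusted p-value below 0.05, 5 of the 10 were called, 3 higher and 2 lower in PELP1-KD cells. Of all tested genes, 46.9% were called, 22.7% higher and 24.2% lower, so the share of members called was near that of genes in general. In 6 of the 10 members the PELP1-KD samples did not overlap the control samples, where 55% of all tested genes had such groups. Without both libraries that stood apart, 6 members were called, 4 higher and 2 lower, with E2F3 in addition (log2FC 0.15, edgeR adjusted p-value 9.19e-04), beside 45.4% of all tested genes. None of the members had a log2FC beyond 1. The median log2FC was 0.06 over the 10 members and 0.0014 over all tested genes. With libraries scaled by their totals alone, 4 members were called higher and 1 lower, and 38.8% of all called genes were lower, against 51.7% under TMM. Reads come from whole cultures, so a change in the share of cells in a phase of the cycle and a change in the RNA per cell cannot be told apart.

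E2F1, the activator best known for driving entry into S phase, had the largest log2FC of the 10 under TMM scaling. It had 134, 138 and 135 CPM in control replicates 1, 2 and 3 and 178, 179 and 169 CPM in PELP1-KD replicates 1, 2 and 3. Every PELP1-KD sample was above every control sample, and the mean was 29.2% higher. The log2FC was 0.37 (standard error 0.037, 95% interval 0.29 to 0.45, edgeR adjusted p-value 7.96e-08). Of all tested genes, 20.6% had a larger log2FC in size. E2F1 lies on chromosome 20 of GRCh38, from 33675683 to 33686404 on the minus strand, and its longest transcript has 7 exons. That transcript is 62.5% G+C, the highest of the 10 members. In a fit with offsets for G+C content and length, the log2FC of E2F1 was 0.21 (adjusted p-value 2.83e-05), smaller in size than those of E2F8, at -0.26, and E2F4, at -0.24, and the part of base composition in the difference was not tested further.

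E2F2, an activator of low level in these cells, rose as well. Its level was 17.3, 18.4 and 16.1 CPM in the control replicates and 21.3, 20.2 and 20.5 CPM in the PELP1-KD replicates. The groups did not overlap, and the mean was 20.1% higher in PELP1-KD cells. The log2FC was 0.26 (standard error 0.074, 95% interval 0.10 to 0.41, edgeR adjusted p-value 0.0071). With the offsets for G+C content and length it was 0.17 (adjusted p-value 0.0487).

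E2F3, whose 2 promoters give the E2F3a and E2F3b proteins, did not pass the test. The control replicates had 135, 125 and 124 CPM and the PELP1-KD replicates 134, 136 and 141 CPM. Control replicate 1 lay inside the PELP1-KD range, and the other two control samples lay below it. The log2FC was 0.10 (95% interval 0.01 to 0.19, adjusted p-value 0.0505). It lay close to the threshold, and 8 of 14 alternative settings brought the adjusted p-value below 0.05, with a log2FC between 0.08 and 0.15 over all 14. Counts per gene cannot separate E2F3a from E2F3b, and reads shared with the pseudogenes E2F3P1 and E2F3P2 were counted on no gene where they aligned to both.

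Among the repressors, E2F4, the main E2F partner of RBL2 in resting cells, fell. It had 139, 146 and 147 CPM in the control replicates and 135, 137 and 125 CPM in the PELP1-KD replicates. All PELP1-KD samples were below all control samples, by a narrow gap between 137 and 139 CPM. The log2FC was -0.13 (standard error 0.042, 95% interval -0.21 to -0.04, edgeR adjusted p-value 0.018). The call was lost with libraries scaled by their totals, with a log2FC of -0.08 (adjusted p-value 0.142), and without control replicate 2, control replicate 3 or PELP1-KD replicate 3, with an adjusted p-value of 0.0681, 0.0592 and 0.148. With the offsets for G+C content and length, the log2FC was -0.24 (adjusted p-value 3.96e-07). Reads shared with the pseudogene E2F4P1 were counted on no gene where they aligned to both.

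E2F5, the other E2F bound by the RBL proteins, did not pass the test. Its control replicates were at 19.3, 19.1 and 18.6 CPM and its PELP1-KD replicates at 17.2, 15.6 and 18.5 CPM. The groups did not overlap, but PELP1-KD replicate 3 lay next to the lowest control sample. The log2FC was -0.15 (95% interval -0.31 to 0.01, adjusted p-value 0.126), and -0.02 with the offsets for G+C content and length. In the annotation, 18.6% of its exon bases are also exons of genes on the other strand, and whether the counting used strand is not given in the sources used here.

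E2F6, the repressor that works with Polycomb proteins, did not pass the test either. It was at 20.3, 21.8 and 22.4 CPM in the control replicates and at 23.3, 22.0 and 22.7 CPM in the PELP1-KD replicates, with overlapping groups. The log2FC was 0.07 (95% interval -0.07 to 0.22, adjusted p-value 0.389). The annotation holds 4 pseudogenes named for E2F6, so reads shared with them are missing from these counts.

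The atypical repressors moved in opposite directions. E2F7 had 113, 107 and 103 CPM in the control replicates and 124, 117 and 115 CPM in the PELP1-KD replicates, without overlap. Its log2FC was 0.14 (standard error 0.044, 95% interval 0.05 to 0.23, edgeR adjusted p-value 0.0144). The call was lost without control replicate 2, control replicate 3 or PELP1-KD replicate 1, with adjusted p-values of 0.0601, 0.0842 and 0.0781, and the log2FC with offsets for G+C content and length was 0.20.

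E2F8 had 63.9, 60.6 and 60.8 CPM in the control replicates and 52.4, 46.2 and 54.4 CPM in the PELP1-KD replicates. All PELP1-KD samples lay below all control samples, with the widest gap among the members that fell. Its mean fell by 17.4%, and the log2FC was -0.27 (standard error 0.058, 95% interval -0.39 to -0.15, edgeR adjusted p-value 5.74e-04). It kept its call under all 14 alternative settings, with a log2FC between -0.32 and -0.21, and without both libraries that stood apart the log2FC was -0.18 (adjusted p-value 0.00322). The ratio of E2F7 to E2F8 in RPKM was 1.15 ± 0.0270 (SD, n = 3) in control cells and 1.53 ± 0.134 (SD, n = 3) in PELP1-KD cells.

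**Figure D2:**
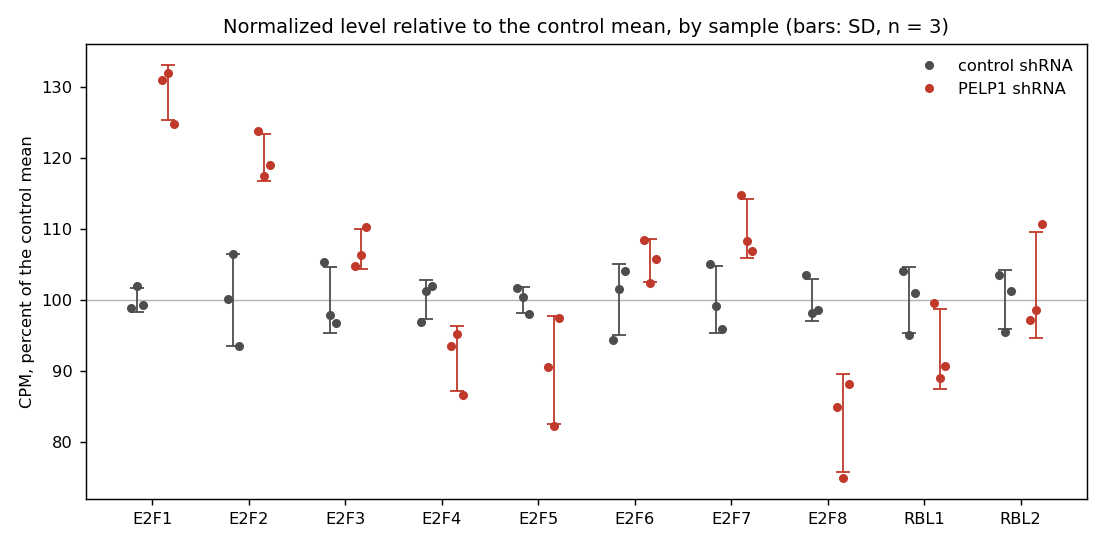
CPM of each gene in each sample as a percent of its control mean, in control samples (grey) and PELP1-KD samples (red), with the SD of 3 samples as a bar. E2F1 and E2F2 lie above all their control samples and E2F8 below all of its own, while the samples of E2F3, E2F6, RBL1 and RBL2 overlap.

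RBL1 and RBL2, the only pocket protein genes examined here, did not pass the test with all samples. RBL1, which is made mainly in dividing cells, had 87.8, 80.1 and 85.1 CPM in the control replicates and 84.0, 75.0 and 76.5 CPM in the PELP1-KD replicates. PELP1-KD replicate 1 lay within the control range. The log2FC was -0.10 (95% interval -0.21 to 0.0032, edgeR adjusted p-value 0.104). With the offsets for G+C content and length it was 0.01 (adjusted p-value 0.909), the only 1 of 14 alternative settings in which it was not below 0. Without PELP1-KD replicate 1, RBL1 was called lower, with a log2FC of -0.15 (edgeR adjusted p-value 0.0325), and without both libraries that stood apart the log2FC was -0.04 (adjusted p-value 0.486). Both E2F words of the RBL1 promoter and those of the E2F1 promoter are shown above. E2F1 rose and RBL1 did not pass, and a link between the words and these values was not tested.

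RBL2, the pocket protein of resting cells, was at 43.8, 40.4 and 42.8 CPM in the control replicates and 41.1, 41.7 and 46.8 CPM in the PELP1-KD replicates. Only PELP1-KD replicate 3 was above all control samples. The log2FC was 0.04 (95% interval -0.09 to 0.16, adjusted p-value 0.655), and without PELP1-KD replicate 3 it was -0.03. Of its exon bases, 18.2% lie on exons of genes of the other strand, among them AKTIP. RBL1 exceeded RBL2 in RPKM 2.45-fold ± 0.0141 (SD, n = 3) in control cells and 2.24-fold ± 0.253 (SD, n = 3) in PELP1-KD cells, and the groups overlapped.

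**Figure D3:**
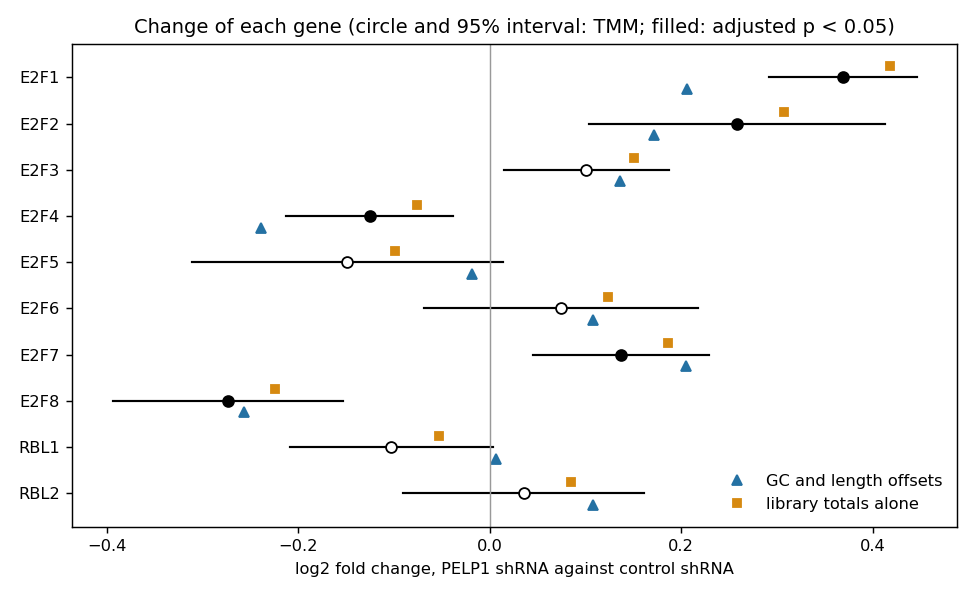
Log2FC of each gene, PELP1-KD against control, with its 95% interval (black; filled circles have an adjusted p-value below 0.05), beside the log2FC with libraries scaled by their totals alone (orange squares) and with offsets for G+C content and length (blue triangles). E2F1, E2F2 and E2F7 lie above 0 and E2F4 and E2F8 below 0 in all 3, and RBL1 changes side with the offsets.

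Set against each other, the activators stood higher over the repressors in each PELP1-KD sample than in any control sample. The RPKM of E2F1, E2F2 and E2F3 summed to 82.8, 82.9 and 80.8 in the control replicates and to 101, 102 and 98.8 in the PELP1-KD replicates, a mean 1.22 times the control mean. E2F1 made up 66.0% of this sum in control cells and 69.8% in PELP1-KD cells. Most of the rise was that of E2F1, from a mean of 54.2 to 70.1 RPKM. The mean of E2F2 went from 3.16 to 3.79 RPKM and that of E2F3 from 24.8 to 26.5 RPKM. E2F3 did not pass the test, and its samples overlapped between groups. The sum of E2F4, E2F5 and E2F6 was 47.2, 49.3 and 49.6 RPKM in the control replicates. In the PELP1-KD replicates it was 46.2, 46.3 and 43.5 RPKM, without overlap, where 55% of all tested genes had groups without overlap. E2F4 made up most of this sum, 40.2 RPKM of a control mean of 48.7 RPKM, and E2F5 and E2F6 did not pass the test. The sum of E2F7 and E2F8 overlapped between groups, at 32.0 RPKM ± 1.22 and 31.1 RPKM ± 1.32 (SD, n = 3). In log2 RPKM, the mean of the 3 activators stood above the mean of the 5 repressors by 0.55, 0.56 and 0.49 in the control replicates and by 0.82, 0.90 and 0.82 in the PELP1-KD replicates. These means are 0.54 ± 0.040 and 0.85 ± 0.045 (SD, n = 3), a difference of 0.31, and no p-value is given for this score over chosen genes. Scaling of whole libraries cannot move it, and with the offsets for G+C content and length it was 0.21. The class names did not sort every member: E2F7, a repressor, rose. The ratio of E2F1 to E2F4, the highest activator and the highest repressor, went from 1.35 ± 0.0316 to 1.90 ± 0.0385 (SD, n = 3) in RPKM. Sums, shares and ratios between genes depend on the length used. By coding length, E2F4 was at 116 RPKM and E2F1 at 104 RPKM in the control samples. The difference of 0.31 was the same by coding length.

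**Figure D4:**
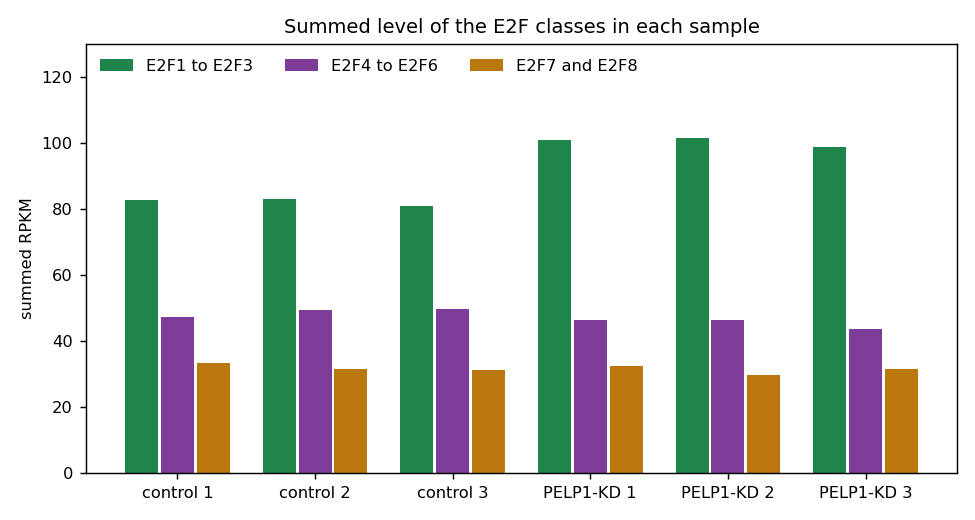
Summed RPKM of the activators E2F1 to E2F3 (green), of E2F4 to E2F6 (purple) and of E2F7 and E2F8 (brown) in each of the 6 samples. The activator sum is between 80.8 and 82.9 in the control samples and between 98.8 and 102 in the PELP1-KD samples.

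The partners and regulators of the family were taken as lists. Of the DP partners, TFDP1, the main one, went from a mean of 255 ± 3.20 to 240 ± 1.06 CPM (SD, n = 3), a log2FC of -0.09 (edgeR adjusted p-value 0.0302). TFDP2 went from a mean of 48.4 ± 1.74 to 53.5 ± 1.49 CPM (SD, n = 3), a log2FC of 0.14 (adjusted p-value 0.0257). Both calls were lost under DESeq2, with adjusted p-values of 0.0533 and 0.0503. TFDP3 had no read in any sample, where 3 reads correspond to between 0.127 and 0.177 CPM.

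MuvB is the core that serves both the DREAM complex and, with MYBL2 or FOXM1, the activation of mitotic genes. Of the 8 genes of MuvB and its activators, 4 were lower, 1 was higher and 3 did not pass, with a median log2FC of -0.13. These are 50% lower and 12.5% higher, where 24.2% and 22.7% of all tested genes were. FOXM1 was among the lower genes, with a log2FC of -0.11 (edgeR adjusted p-value 0.0108), and the 3 that did not pass are all of the core. MYBL2 (B-Myb), itself an E2F target, had 189, 195 and 204 CPM in the control replicates and 268, 286 and 271 CPM in the PELP1-KD replicates, with a log2FC of 0.49 (edgeR standard error 0.037, adjusted p-value 9.27e-10). Its paralog MYBL1 (A-Myb) went the other way, from a mean of 128 ± 9.81 to 91.2 ± 3.28 CPM (SD, n = 3), a log2FC of -0.49 (adjusted p-value 8.69e-08). LIN9, the MuvB subunit that MYBL2 binds with, fell from a mean of 36.7 ± 3.54 to 28.0 ± 1.95 CPM (SD, n = 3), a log2FC of -0.38 (adjusted p-value 2.08e-04).

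Of the 12 genes of the E2F6 Polycomb complex, 5 were lower, 2 were higher and 5 did not pass, with a median log2FC of -0.12. The called genes were 58.3% of the list, 41.7% lower and 16.7% higher, against 46.9% of all tested genes, 24.2% lower and 22.7% higher. The falls included PCGF6, its Polycomb ring finger subunit, with a log2FC of -0.42 (adjusted p-value 5.73e-06), YAF2, at -0.42 (adjusted p-value 6.76e-04), and CBX3, a reader of methylated histone H3, at -0.30 (adjusted p-value 4.53e-05). E2F6 itself, as given above, did not pass the test.

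Upstream, the cyclin D and cyclin E kinases release E2F factors from pocket proteins, the phosphatase CDC25A activates such kinases and CDK inhibitors oppose them. Of 15 genes of G1 cyclins, CDKs, their inhibitors and CDC25A, 13 were tested, 4 of them higher and 1 lower. The called genes were 38.5% of those tested, 30.8% higher and 7.69% lower, against 46.9% of all genes, 22.7% higher and 24.2% lower. CCND1 fell with a log2FC of -0.55, from a mean of 633 ± 6.32 to 434 ± 3.97 CPM (SD, n = 3), and CCND3 rose with a log2FC of 0.54. CDKN1A (p21), an inhibitor of cyclin-dependent kinases, rose with a log2FC of 0.69, from a mean of 67.7 ± 3.25 to 110 ± 3.63 CPM (SD, n = 3). Of the 4 genes of E2F turnover, 2 were lower, 1 was higher and 1 did not pass. Calls made up 75% of this short list, 25% higher and 50% lower, against 46.9% of all tested genes, 22.7% higher and 24.2% lower. CCNA2, whose kinase ends E2F1 binding to DNA, had a log2FC of -0.17 (adjusted p-value 1.73e-04). The call of SKP2, at -0.10 (adjusted p-value 0.0414), was lost under 10 of 14 alternative settings. CCNF, which marks E2F factors for breakdown, had a log2FC of 0.16 (adjusted p-value 0.00738), lost with the offsets for G+C content and length and without control replicate 2 or PELP1-KD replicate 3, with adjusted p-values of 0.105, 0.0714 and 0.0662. These are edgeR p-values.

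The targets of the family were taken by phase. Of 30 E2F target genes of the G1/S transition, 6 were higher, 6 were lower and 18 did not pass, with a median log2FC of 0.0049. The called genes were 40% of the list, 20% in each direction, against 46.9% of all tested genes, 22.7% higher and 24.2% lower. CHAF1B, a histone chaperone subunit at the replication fork, had a log2FC of 0.22 (edgeR adjusted p-value 2.43e-04). The subunits of DNA polymerase alpha moved apart: POLA2 had a log2FC of 0.25 (adjusted p-value 0.00155) and POLA1 a log2FC of -0.34 (adjusted p-value 1.73e-05). The split of this list differed between settings. Under library totals, 10 were higher and 6 lower, where 3817 and 2418 of all 12796 tested genes were. With the offsets for G+C content and length, 7 were higher and 12 lower, where 3028 and 3330 of all 12796 tested genes were.

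Of 30 targets that MuvB complexes govern at the G2/M transition, 18 were lower, 1 was higher and 11 did not pass, with a median log2FC of -0.11. The lower genes were 60% of the list, against 24.2% of all tested genes. The largest falls were those of ECT2, which starts cytokinesis, at -0.39 (adjusted p-value 4.08e-07), TTK, a spindle checkpoint kinase, at -0.38 (adjusted p-value 1.11e-05), and CENPE, a kinetochore motor, at -0.36 (edgeR adjusted p-value 1.69e-06). Across the alternative settings that keep all samples, between 12 and 19 of these genes were lower, the fewest under library totals, and 12 were lower without PELP1-KD replicate 2. Of all tested genes, 2418 of 12796 were lower under library totals and 2740 of 12845 without PELP1-KD replicate 2. Control replicate 1 was the highest control sample for 21 of the 30 genes, and PELP1-KD replicate 2 the lowest PELP1-KD sample for 18. Without both, 18 were lower and 3 higher, beside 23.8% lower and 21.6% higher of all tested genes. The log2FC was then -0.29 for ECT2, -0.26 for TTK and -0.29 for CENPE. CDC25C, named after its value was seen as the 1 gene of the list called higher, had a log2FC of 0.24. No test was made of the difference between the G1/S and G2/M lists.

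**Figure D5:**
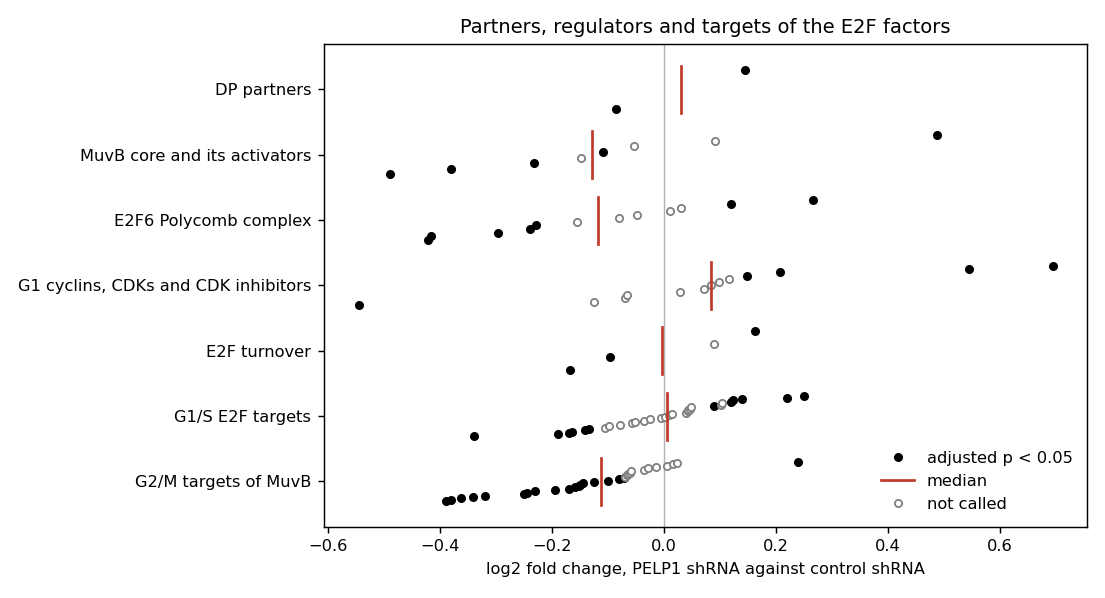
Log2FC, PELP1-KD against control, of each tested gene of the 7 lists of partners, regulators and targets (filled: adjusted p-value below 0.05; open: not called), with the median of each list as a red line. The G2/M targets lie mostly below 0, with a median of -0.11, and the G1/S targets on both sides of it.

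The promoter letters were counted in the same lists. Of the G1/S targets with a window, 17 of 28 held an E2F word, against 3.99% of all genes, and 3 of 25 G2/M targets did. The CHR word TTTGAA, through which MuvB reaches mitotic promoters, was in 18 of 25 G2/M targets and 2 of 28 G1/S targets on either strand, against 18.2% of all genes. Both lists were chosen as targets of these factors, so high shares of the words could be foreseen and are no result of these samples. Within the lists, the E2F word was in 4 of 6 G1/S targets that were lower, 3 of 6 that were higher and 10 of 16 that did not pass, and the CHR word in 11 of 16 G2/M targets that were lower and 6 of 8 that did not pass. Among the members, the CHR word was in 1 window each of E2F3 and RBL2.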

How the data were processed

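RNA-seq libraries of poly(A) mRNA from 3 control and 3 PELP1-KD samples were sequenced as single reads of 50 bases. The authors deposited raw counts of reads per gene symbol for each sample. The submitters' processing notes name bcl2fastq, TopHat2, SAMtools, HTSeq and the build hg19, without versions, and strand use and annotation are not given in the sources used here. Reads with several alignments, between 32.5% and 32.9% of each table's total, reads on no gene, between 7.64% and 8.19%, and ambiguous reads, between 0.657% and 0.688%, were counted on no gene and left out of library sizes.

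Genes passing filterByExpr of edgeR 4.0.16 in R 4.3.3 (minimum count 10) were tested by its quasi-likelihood test on the 2 groups, with TMM scaling and Benjamini-Hochberg adjustment over all 12796 tested genes. Standard errors were taken as the size of the log2FC over the root of the F statistic. RPKM was computed from exon lengths in GENCODE release 29 on GRCh38, which is not the build of the counts; 92.5% of symbols had a length. The scripts were tested on simulated data. Floors of 3 reads cover counting error only.

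The alternatives were RLE factors, library totals, DESeq2 1.42.0, voom in limma 3.58.1, filters, the replicate number as a block, each replicate left out, loess offsets (span 0.5) for G+C content and length, known for 96.1% of tested genes, other lengths and an adjusted p-value of 0.01. The balance of activators and repressors under these offsets and the fit without both libraries that stood apart, with 2 samples a group, were added after seeing the data. The members, lists and tests were chosen with earlier results of these data known. The genes named are the 10 members, PELP1, the DP partners and, in each other list, the 3 genes with the largest log2FC in size among those called. The values of CDC25C and FOXM1 were given in addition, outside this rule. Pairs of replicates within a group differed by more than sampling noise, and control replicate 1 and PELP1-KD replicate 2 stood apart.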

Additional observations from a re-analysis of the deposited data

How the results depend on the processing

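E2F1, E2F2 and E2F8 kept their direction and their call under each of the 14 alternative settings of the test, as did PELP1. Leaving out each replicate in turn gave between 3 and 6 members called, between 2 and 4 higher and between 1 and 3 lower. Between 5193 and 5903 of all tested genes were called in these fits, against 6007 with all samples. An adjusted p-value of 0.01 left 3 members called, 1 of them lower. The share of all tested genes called at 0.01 is not given here, so this number cannot be read against genes in general. Library totals left 1 member lower, where 2418 of all 12796 tested genes were lower. RBL1 turned to 0.0065 with the offsets for G+C content and length, and RBL2 ranged from -0.029 to 0.072 with a replicate left out, turning to -0.0021 without control replicate 2 and to -0.029 without PELP1-KD replicate 3. RBL1 was called lower, at -0.15 (edgeR adjusted p-value 0.0325), without PELP1-KD replicate 1. The cause was not tested. The numbers 1 to 3 of the replicates are shared between the groups, but the deviations of same-numbered samples correlated at 0.039, 0.065 and -0.078, and control replicate 1 correlated best with PELP1-KD replicate 3. The numbers were therefore not taken as pairs. With the replicate block, 7 members were called, beside 6475 of all 12796 tested genes, where the main fit called 6007. The members called in addition were E2F3 (edgeR adjusted p-value 0.0296) and RBL1 (adjusted p-value 0.0414). All other members kept their side of the threshold.

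Ranked by coding length, 2 of the 10 members kept their place in the order of control levels. The difference in balance between activators and repressors was 0.37 as the log2 ratio of summed RPKM and 0.21 with the offsets. Of the lists, the DP partners had 0 higher and 0 lower genes under DESeq2, 0 lower under library totals, and between 0 and 1 in either direction with a replicate left out. G1 regulators had 2 lower genes without a filter on low counts and with the replicate block, 3 with the offsets, and between 1 and 2 with a replicate left out. E2F turnover had 2 higher genes and 1 lower under library totals, 0 and 1 with the offsets, 1 lower without a filter and under DESeq2, and with a replicate left out between 0 and 1 higher and 1 lower. The E2F6 Polycomb complex had between 1 and 2 higher genes with a replicate left out. The G1/S targets had 10 higher genes under library totals, 12 lower with the offsets, and between 3 and 5 higher with a replicate left out. The G2/M targets had 2 higher with the offsets. Without control replicate 1 and PELP1-KD replicate 2, a fit chosen after seeing the data, G1 regulators had 2 lower genes and G2/M targets 3 higher, and the counts of all other lists stayed within 1.5 times. E2F2, with 286 to 483 reads per sample, was measured at the lowest depth of the called members.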
